A study of Caenorhabditis elegans with 4 samples.

Results

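Chromosome III of Caenorhabditis elegans carried 901 of the 5942 RNA polymerase II (Pol II) peaks that were listed for third-stage (L3) larvae. The 901 peaks are all rows of the deposited peak list that name chromosome III, so rows were picked by position and by no measured value. Chromosome III itself was chosen with earlier results of these data known. Pol II chromatin had been precipitated with the mouse monoclonal antibody 8WG16, which recognises the heptapeptide repeats at the C-terminal end of the largest subunit, and sequenced beside input DNA. There were 2 Pol II and 2 input libraries, all from hermaphrodites of strain OP26 at 20 degrees Celsius, fixed with 2% formaldehyde. All 4 libraries carry the mutation unc-119(ed3) on chromosome III. All 4 also carry the transgene wgIs26, which holds unc-119(+) beside a mab-5::TY1::EGFP::3xFLAG fusion, so there is no strain without it. The transgene, introduced by bombardment, adds copies of mab-5 and unc-119, which a RefSeq gene table (WBcel235) places on chromosome III. Reads from the added and the native copies cannot be told apart in the list. The protocol text that the labels share names anti-GFP serum and embryos, and the sample descriptions, which name Pol II and L3, were followed.

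Pol II transcribes all protein-coding genes, and its chromatin signal covers promoters, where it is recruited and can pause, and the bodies of genes that are being read. Worm autosomes have a gene-dense centre that recombines little, flanked by arms that recombine more and hold more repeats. Chromosome III also carries the core of the Hox gene cluster, which patterns the body axis and to which mab-5 belongs. Peaks are given here by position only, because no gene annotation of the list's genome build (WormBase WS180) was used.

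The list pools the libraries, so no value below has an error between replicates. It gives an authors' q-value for each peak, which is a p-value after adjustment for multiple regions, and no read count, so the depth is unknown. A small q-value need not mean a strong enrichment. The q-values fit a list that starts at rank 96 of the calling: with this first rank, 686 neighbouring pairs came out with equal p-values, against 0 pairs for each of the other first ranks tried out of 300. The 95 regions of higher rank, on unknown chromosomes, were not analysed here. Counts, covered bases, widths, broad peaks and gaps below are therefore those of listed peaks only. Means and SDs below are over windows of 1 chromosome, which are neighbours and not replicates, so no p-value is given for them. Intervals of shares and medians are exact binomial 95% intervals, which treat peaks as independent and cover counting error only.

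The peaks of chromosome III reached from base 11732 to base 13774011, and they covered 1.26 Mb. That is 9.15% of the 13.8 Mb that end with the last peak. The first peak was 359 bp wide (III:11732-12090, q = 0.00237). The last was 798 bp wide (III:13773214-13774011, q = 5.79e-09). In fixed 500 kb windows from base 1, the 27 full windows held 32.7 ± 11.9 peaks, with a lowest count of 10, a median of 34 and a highest count of 54. Covered bases were 45.7 ± 20.4 kb per window, with a lowest value of 11.8 kb, a median of 45.0 kb and a highest of 86.2 kb. Every full window thus had peaks. Across these windows, peak number and covered bases went together (Pearson's r = 0.79 over 27 windows, as a description, since covered bases are made of the same peaks).

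**Figure D1:**
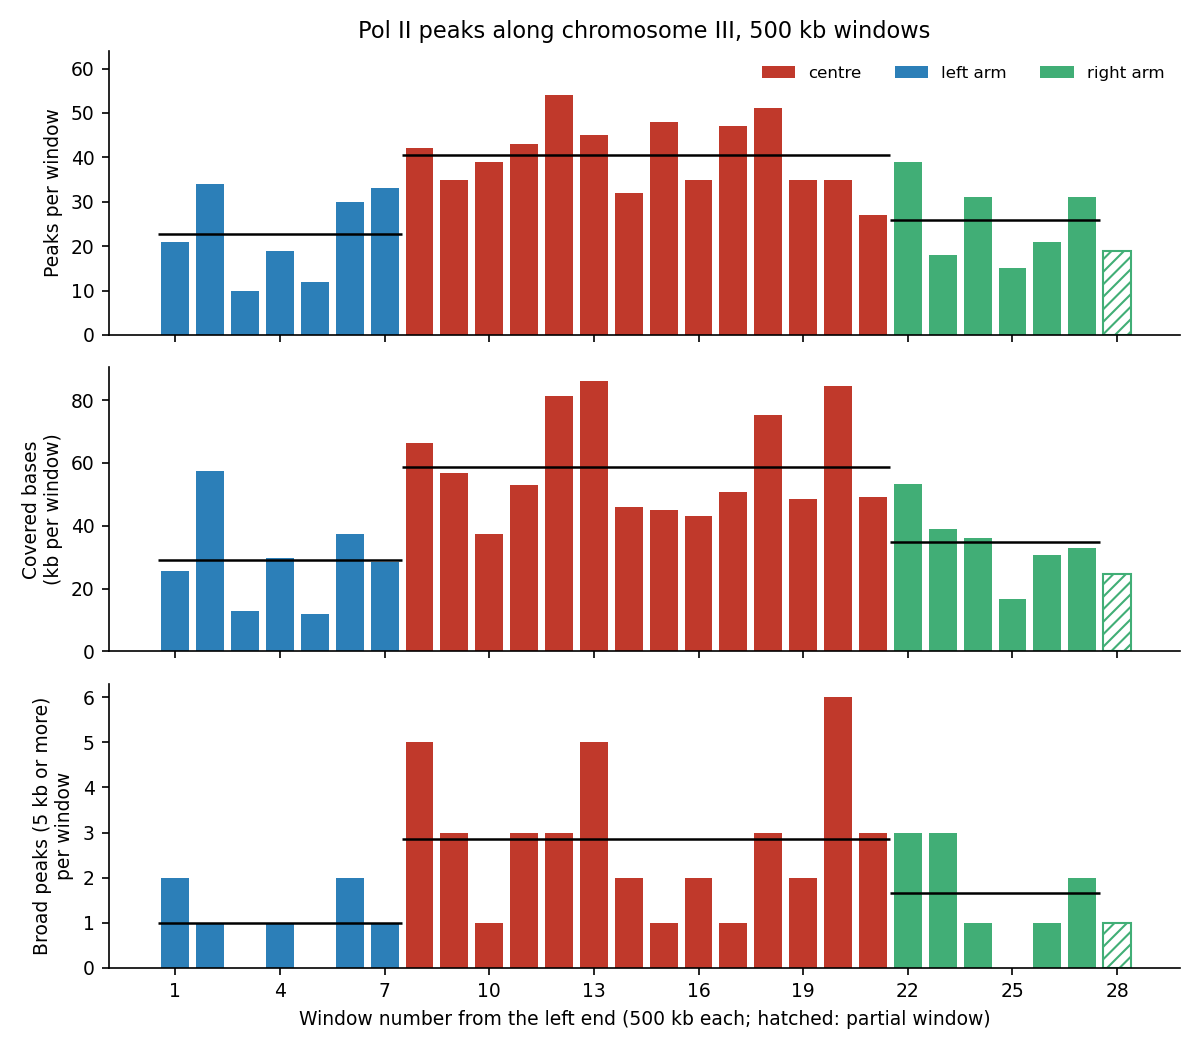
Peaks (top), covered bases in kb (middle) and broad peaks of 5 kb or more (bottom) in 500 kb windows along chromosome III, numbered from the left end. Black lines are the means of the full windows of each zone, and the hatched bar is the partial last window. The 14 centre windows average 40.6 peaks, the 7 left arm windows 22.7 and the 6 right arm windows 25.8.

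The centre of chromosome III was denser in Pol II peaks than either arm. The centre is the stretch from 3.44 to 10.3 Mb, the middle 50% of the listed length, and windows were assigned by their midpoint. Its 14 windows held 40.6 ± 7.83 peaks each, against 22.7 ± 9.83 in the 7 windows of the left arm (1.79-fold) and 25.8 ± 9.26 in the 6 full windows of the right arm (1.57-fold). The lowest, median and highest counts were 27, 40.5 and 54 in the centre, against 10, 21 and 34 in the left arm and 15, 26 and 39 in the right arm. The ranges overlapped: 7 of 14 centre windows lay above every arm window, and 7 of 13 arm windows lay below every centre window. Of the centre windows, 12 exceeded the chromosome's median of 34 peaks, and of the arm windows 1 did. No test was made of these differences. If all 95 regions of higher rank lay in 1 arm, the centre would still have 1.12 times the peak density of the left arm or 1.01 times that of the right arm.

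Covered bases were split in the same direction. Centre windows held 58.8 ± 16.6 kb, against 29.0 ± 15.5 kb in the left arm (2.02-fold) and 34.8 ± 11.8 kb in the right arm (1.69-fold). Of the 14 centre windows, 5 exceeded every arm window. The arm window with the most covered bases was the second of the left arm, from base 500001 to 1000000, with 57.4 kb and 34 peaks. Counted over whole zones without windows, peaks covered 11.8% of the centre (562 peaks), 5.85% of the left arm (156 peaks) and 7.10% of the right arm (183 peaks).

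Peak number was more even within the centre than within the arms. The variance of the window counts divided by their mean was 1.51 in the centre (14 windows). It was 4.25 in the left arm (7 windows) and 3.32 in the right arm (6 windows). Points without width, placed independently and evenly, give 1. The value for even placement as defined below, which keeps widths and smallest gaps, was not calculated. In the left arm, 3 windows had 30 peaks or more, namely 34, 30 and 33, and the other 4 had 21, 10, 19 and 12. In the right arm the windows had, from the centre outwards, 39, 18, 31, 15, 21 and 31 peaks. The densest arm window, with 39 peaks, was the one next to the centre, from 10500001 to 11000000. Neighbouring full windows resembled each other moderately in peak number (Pearson's r = 0.47 over 26 pairs, as a description).

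The densest windows were all in the centre. The window from 5500001 to 6000000 held 54 peaks over 81.2 kb, of which 3 were broad and 12 had a q-value of 1e-20 or less. The window from 8500001 to 9000000 held 51 peaks over 75.2 kb, with 15 such q-values, the highest number of all windows. The window from 7000001 to 7500000 held 48 peaks, but they covered only 45.0 kb, with a median width of 480 bp. The window with the most covered bases, 86.2 kb, was another one, from 6000001 to 6500000, with 45 peaks and 5 broad ones.

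The windows with fewest peaks lay in the arms. They held 10 peaks from 1000001 to 1500000, 12 peaks from 2000001 to 2500000 and 15 peaks from 12000001 to 12500000. Their covered bases were 12.9, 11.8 and 16.8 kb. These were also the 3 windows of the chromosome without a broad peak. They were not without peaks of small q-value, since the best q-values in them were 2.46e-98, 5.18e-37 and 2.22e-65.

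Most peaks of chromosome III were narrow. The median width was 640 bp (95% interval 583 to 696), the quartiles were 322 and 1471 bp, and the range was 1 to 15467 bp. Peaks of 50 bp or less numbered 47, or 5.22% (95% interval 3.86 to 6.88%), and 2 of them were 1 bp wide. None of these 47 had a q-value of 1e-20 or less, and the narrowest peak that did was 473 bp wide. Width did not differ between the zones beyond the intervals: the median was 641 bp in the centre (562 to 718), 639.5 bp in the left arm (504 to 853) and 624 bp in the right arm (510 to 758). The higher coverage of the centre went with more peaks, while its median peak was not wider. Mean width was 1448 bp in the centre, 1290 bp in the left arm and 1336 bp in the right arm. Broad peaks also held a larger part of the covered bases of the centre than of either arm, as given below.

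Broad peaks, of 5 kb or more, were 58 of 901 (6.44%, 95% interval 4.92 to 8.24%). They held 471 kb, or 37.4% of all covered bases of the chromosome. The limit fell in a gap of the widths, with 4978 bp as the widest peak below it and 5174 bp as the narrowest above. The centre had 40 broad peaks (7.12% of its peaks, 95% interval 5.13 to 9.57%), the left arm 7 (4.49%, 1.82 to 9.03%) and the right arm 11 (6.01%, 3.04 to 10.5%). As a share of peaks these intervals overlap. Broad peaks held 40.5% of the covered bases of the centre, 25.9% of those of the left arm and 36.5% of those of the right arm. Per 500 kb window, the centre had 2.86 ± 1.56 broad peaks, against 1.00 ± 0.816 in the left arm and 1.67 ± 1.21 in the right arm. Between 1 and 6 broad peaks lay in each centre window, with 6 in the window from 9500001 to 10000000.

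The widest peak was also the one with the smallest q-value. It spanned 15467 bp in the centre (III:4491055-4506521, q = 1.9e-299). The second widest, of 14801 bp, lay at III:5827503-5842303 (q = 1.6e-160), and the third, of 13040 bp, at III:3789411-3802450 (q = 5.25e-197). They were followed by a peak of 11827 bp at III:5706117-5717943 (q = 9.73e-113) in the same window as the second. The fifth, of 11133 bp, was in the left arm at III:1615914-1627046 (q = 1.57e-61). Of these 5 peaks, 4 were thus in the centre, as were 562 of all 901 peaks. Among the 10 of smallest q-value were 2 of the 5.

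The 10 peaks of chromosome III with the smallest q-values were 3352 to 15467 bp wide, and 8 of them were broad. The centre held 8, the right arm 2 and the left arm 0. Of all 901 peaks, the centre held 562, the right arm 183 and the left arm 156. After the widest peak came one close to the right end (III:13066857-13074826, 7970 bp, q = 5.87e-274). The third lay at III:7775001-7786000 (11000 bp, q = 3.41e-250), with the ninth in the same window at III:7897573-7905018 (7446 bp, q = 1.14e-201). The other right arm peak was the fifth, at III:10710447-10721038 (10592 bp, q = 8.17e-234). Such q-values were thus found in the middle of the chromosome, next to the edge of the centre and in the outermost full window.

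The remaining peaks of this group were all central. One lay at III:5023228-5027694 (4467 bp, q = 1.2e-242) and another at III:6123399-6133190 (9792 bp, q = 1.83e-229). The narrowest of the group lay at III:4192901-4196252 (3352 bp, q = 2.09e-213), in the window that also holds the widest peak. A further one lay at III:9852579-9858573 (5995 bp, q = 2.53e-204), and the last was the peak of 13040 bp named above. Because regions of higher rank are not in the list, these are the smallest q-values among listed peaks only.

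Small q-values were spread over the whole chromosome. There were 176 peaks with a q-value of 1e-20 or less (19.5%, 95% interval 17.0 to 22.3%), with 1 to 15 in each full window. The share was 21.0% in the centre (17.7 to 24.6%), 16.7% in the left arm (11.2 to 23.5%) and 17.5% in the right arm (12.3 to 23.8%). The centre's share lay within the intervals of both arms. The 35 peaks with a q-value of 1e-100 or less lay in 18 of the 28 windows. Of them, 24 were in the centre, as were 562 of all 901 peaks. Broad peaks made up 28 of the 35 and 58 of all 901. At the weak end, 146 peaks (16.2%) had a q-value above 0.001. They made up 13.5% of the centre's peaks, 24.4% of those of the left arm and 17.5% of those of the right arm.

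**Figure D2:**
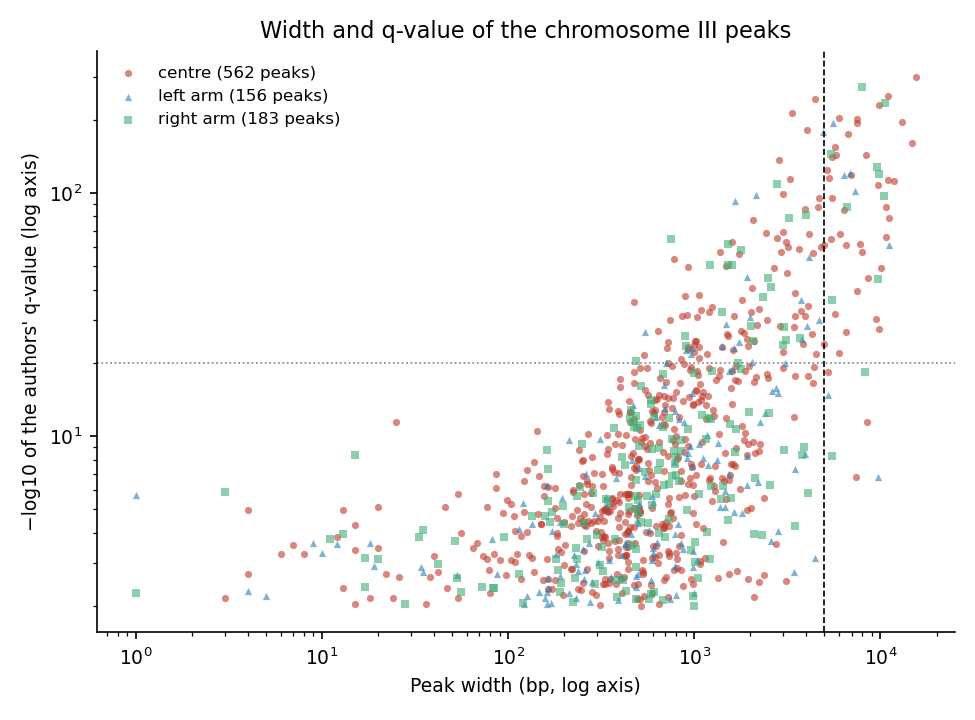
Width in bp and −log10 of the authors' q-value of each of the 901 peaks, both on log axes, by zone. The dashed line marks 5 kb and the dotted line a q-value of 1e-20. Of the 58 peaks right of the dashed line, 51 lie above the dotted one, and no peak of 50 bp or less does.

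Wider peaks had smaller q-values. Over the 901 peaks, width and −log10 q had a Spearman's rho of 0.67, with 0.68 in the centre, 0.67 in the left arm and 0.64 in the right arm. These are descriptions over peaks of 1 pooled list, which share their libraries and depth. The median −log10 q was 3.21 for peaks of 50 bp or less, 7.55 for those of 501 to 1000 bp, 24.9 for those of 2001 to 4999 bp and 95.9 for broad peaks. Of the 7 width classes, the centre had a higher median than the left arm in 6 and than the right arm in 4. For the class of 2001 to 4999 bp, this median was 30.6 in the centre (62 peaks), 15.3 in the left arm (21 peaks) and 24.2 in the right arm (22 peaks). Broad peaks ran the other way, with a median of 91.2 in the centre (40 peaks), 102 in the left arm (7 peaks) and 96.7 in the right arm (11 peaks).

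Pol II peaks on chromosome III lay closer to each other than even placement gives. Even placement means that the same 901 peaks are spread with equal chance over the chromosome, with gaps of at least the 200 bp that separate any listed peaks, and its values were calculated by formula without a test. The median gap between neighbouring peaks was 5.56 kb, against 9.70 kb under even placement, and the quartiles were 1454 and 19179 bp. Another peak lay within 1 kb of 300 peaks (33.3%, 95% interval 30.2 to 36.5%), against 11.0% under even placement, a ratio of 3.02. Within 500 bp the shares were 18.5% and 4.28%, and within 5 kb 71.0% and 50.3%. The shortest gap was 202 bp.

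The share of peaks with a close neighbour was lowest in the left arm. A peak within 1 kb was found for 35.2% of the centre's peaks (95% interval 31.3 to 39.3%), 23.1% of those of the left arm (16.7 to 30.5%) and 36.1% of those of the right arm (29.1 to 43.5%). Even placement within each zone gives 14.0%, 7.39% and 8.75% for the same zones, so that the observed share was 2.52, 3.12 and 4.12 times the even one. The interval of the left arm lies just below that of the centre and overlaps that of the right arm. Close neighbours come in pairs or longer runs: 16 in the left arm, 78 in the centre and 28 in the right arm. Intervals that treat peaks as independent are therefore too narrow to separate the left arm from the centre. The right arm thus had about the centre's share of close neighbours at a lower peak density. These zone differences were not tested.

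**Figure D3:**
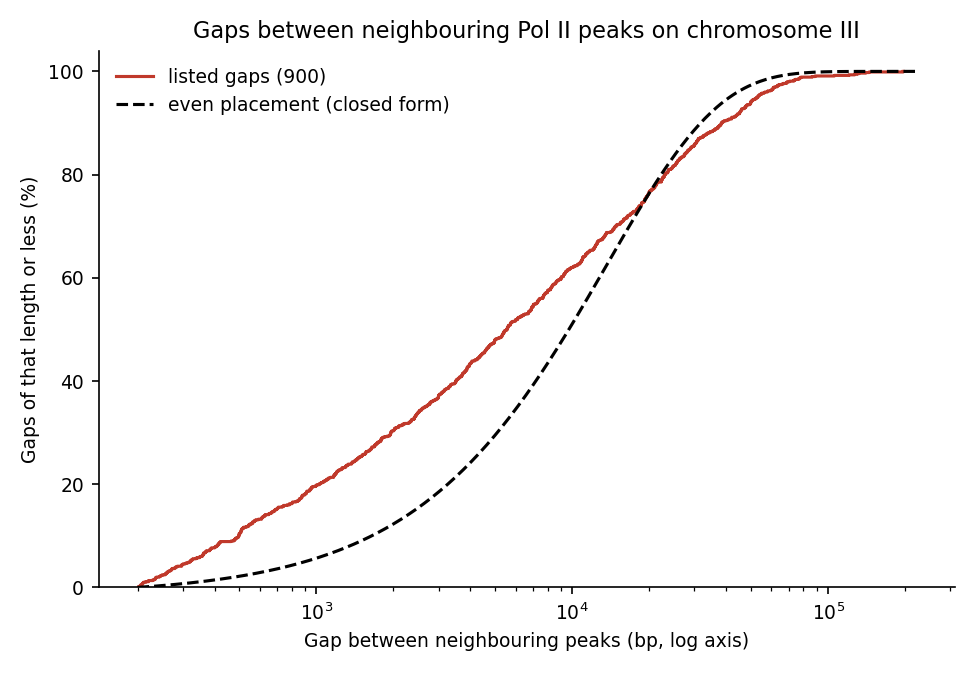
Cumulative share of the 900 gaps between neighbouring peaks on chromosome III against gap length in bp (log axis), with the curve that even placement gives as a dashed line. The listed gaps lie above the dashed curve at short lengths, with 19.8% of gaps at 1 kb or less against 5.67%, and below it at long lengths.

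Runs of closely spaced peaks were short. Joining peaks with gaps of 1 kb or less left 601 single peaks and 122 runs, of which 82 had 2 peaks, 31 had 3 and 9 had 4 or more. The longest run held 8 peaks in 17.2 kb of the centre (III:8289123-8306347), none of them broad. Its peaks were 362, 1952, 1194, 1368, 1924, 1862, 4097 and 922 bp wide, from left to right. The gaps between them ranged from 215 to 938 bp, so peaks covered 13.7 kb of the run. Their q-values differed widely, from 0.0026 to 2.25e-50, and the smallest belonged to the last peak and not to the widest one. Whether such a run is 1 occupied stretch listed in pieces or several separate loci cannot be told from the list.

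The other long runs were shorter. A run of 5 peaks spanned 12.5 kb at III:3600945-3613492, with a broad peak of 5248 bp as the member before the last (q = 5.05e-19). The smallest q-value, 2.69e-78, belonged to the last member, which was 2054 bp wide. A second run of 5 peaks spanned 6.89 kb at III:9549998-9556891, with widths from 86 to 1848 bp and a smallest q-value of 2.77e-15. When gaps of up to 5 kb were joined, the run with the most peaks lay in the right arm, with 9 peaks in 14.1 kb at III:10604216-10618332. None of these 9 peaks was broad, and the smallest q-value was 3.45e-19.

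The longest peak-free stretches were in the arms, mostly in the left one. The longest was 196 kb, from 1216566 to 1412988 in the left arm, against an expected longest gap of 101 kb under even placement. The second was 145 kb in the right arm, from 11092161 to 11236730. The next 3 were again in the left arm, with 140 kb from 1952135 to 2092211, 132 kb from 2295800 to 2427613 and 130 kb from 1676906 to 1806549. Of the 8 gaps of 100 kb or more, 5 were in the left arm, 3 in the right arm and 0 in the centre. In the centre the longest gap was 77.5 kb. Gaps of 50 kb or more numbered 52, against 23.6 under even placement, and they took up 28.0% of the chromosome. Regions of higher rank are not in the list, so a stretch named here could hold such a region, which was not examined.

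Mean peak density was higher on chromosome III than on chromosomes II, IV, V and X. Chromosome I was not part of this comparison, so the place of III among all chromosomes was not determined. Of the 5942 listed peaks, IV had 912, III 901, II 713, V 633 and X 605. The other listed peaks, which outnumber those of III, were not compared. The 27 full windows of III held 32.7 ± 11.9 peaks, against 17.1 ± 6.94 on X (35 windows), 15.2 ± 11.6 on V (41 windows), 26.4 ± 12.2 on IV (34 windows) and 23.2 ± 15.1 on II (30 windows). The ratios were 1.92 to X, 2.15 to V, 1.24 to IV and 1.41 to II, and the SDs of the windows overlap in each pair. As 1 of 5 chromosomes, III could give no smaller one-sided p than 0.2 if chromosomes were exchanged in an exact permutation, so no test was made here. In covered bases III had 45.7 ± 20.4 kb per window, against 32.5 ± 13.1 kb on X, 30.2 ± 20.0 kb on V, 42.6 ± 16.7 kb on IV and 38.2 ± 17.7 kb on II. The ratio to IV was thus 1.07 in covered bases and 1.24 in peak number. The median peak was 640 bp on III (583 to 696), against 995 bp on X (907 to 1083), 959 bp on V (848 to 1117), 765 bp on IV (705 to 850) and 763 bp on II (681 to 864). The interval of III overlaps that of II and lies below those of IV, V and X.

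**Figure D4:**
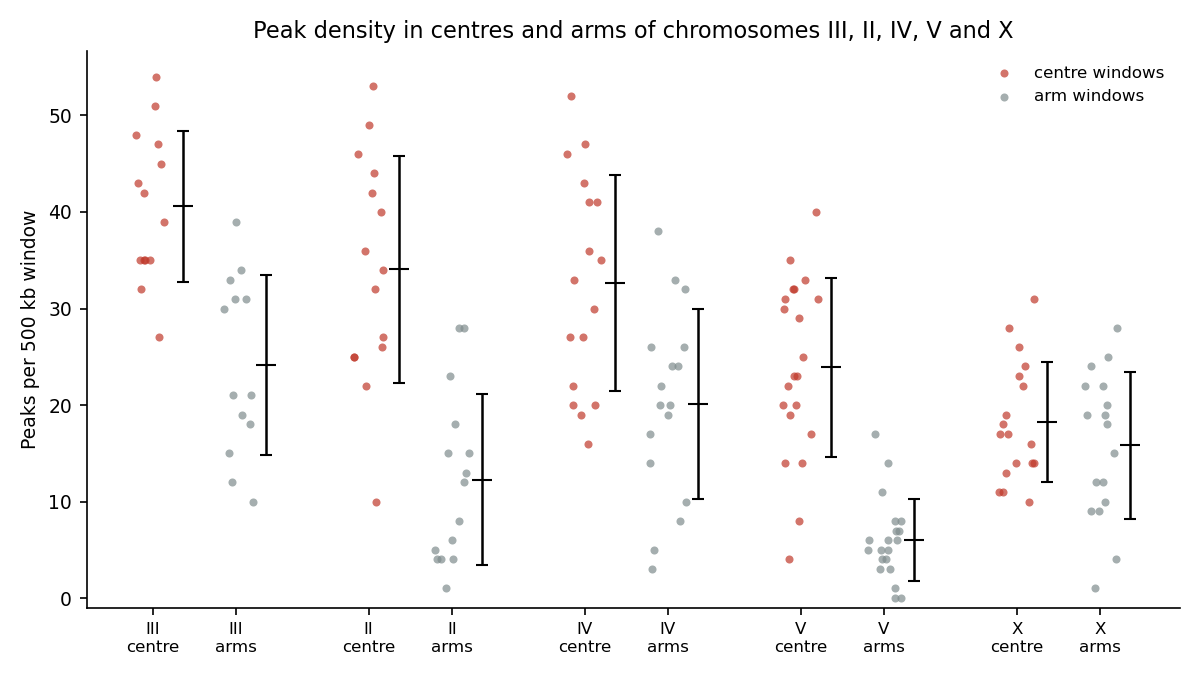
Peaks in each full 500 kb window of chromosomes III, II, IV, V and X, with centre windows left of arm windows. Bars are the mean ± SD over windows. The centre of III averages 40.6 peaks and its arms 24.2, and no window of III holds fewer than 10 peaks, whereas the arms of V average 6.0.

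With both arms pooled, arm windows held more peaks on average on chromosome III than on the 4 chromosomes compared with it. Taken alone, the left arm of IV held 26.4 ± 6.64 peaks per window. That is above the left arm of III (22.7 ± 9.83) and its right arm (25.8 ± 9.26). Arm windows of III had 24.2 ± 9.31 peaks, against 15.8 ± 7.64 on X, 6.0 ± 4.27 on V, 20.1 ± 9.84 on IV and 12.3 ± 8.87 on II. Centre windows had 40.6 ± 7.83 on III, against 18.2 ± 6.19 on X, 23.9 ± 9.26 on V, 32.6 ± 11.2 on IV and 34.1 ± 11.8 on II. No window of III had fewer than 10 peaks, against 4 windows on X, 19 on V, 3 on IV and 7 on II. Centre over arms was 1.68-fold on III, against 1.15-fold on X, 3.98-fold on V, 1.63-fold on IV and 2.78-fold on II. The arms of III were close to each other in density: the higher exceeded the lower 1.14-fold, against 1.73-fold on X, 1.03-fold on V, 2.05-fold on IV and 3.64-fold on II. The longest peak-free stretch of III, 196 kb, was shorter than those of II (657 kb), IV (309 kb), V (795 kb) and X (447 kb). It was 1.94 times the value of even placement on III, against 2.36 on X, 3.68 on V, 2.40 on IV and 4.69 on II. None of these differences was tested.

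The median q-value of broad peaks was smaller on chromosome III than on II, IV, V or X. The median −log10 q of broad peaks was 95.9 on III (95% interval 64.6 to 118), against 40.1 on X (26.7 to 65.2), 50.3 on V (34.7 to 61.7), 44.8 on IV (35.9 to 98.1) and 49.6 on II (35.5 to 94.3). The interval of III lies above that of V and overlaps the others. Median widths of broad peaks were 7475 bp on III, 6308 bp on X, 7075 bp on V, 7148 bp on IV and 7070 bp on II. Of the broad peaks, 48.3% reached a q-value of 1e-100 or less on III (35.0 to 61.8%), against 20.0% on X (10.4 to 33.0%), 23.2% on V (13.9 to 34.9%), 36.5% on IV (24.7 to 49.6%) and 31.6% on II (19.9 to 45.2%). Over peaks of all widths, III was not ahead. The median −log10 q of all peaks was 6.52 on III, against 5.37 on X, 6.46 on V, 5.89 on IV and 6.68 on II. The share with a q-value of 1e-20 or less was 19.5% on III, against 17.4% on X, 24.96% on V, 20.2% on IV and 21.3% on II. A q-value of 1e-100 or less was listed for 35 of 901 peaks on III and 38 of 633 on V. In 6 of 7 width classes, however, the median −log10 q of III was above those of II, IV, V and X. The exception was the class of 50 bp or less, where III had 3.21 against 3.73 on II and 3.49 on IV. Some leads of III were narrow, at 24.9 against 24.2 on II for 2001 to 4999 bp. For 51 to 250 bp they were 3.60 on III against 3.45 on IV. No intervals were calculated for the classes below 5 kb. The 95 regions of higher rank would have small q-values and could change this order.

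**Figure D5:**
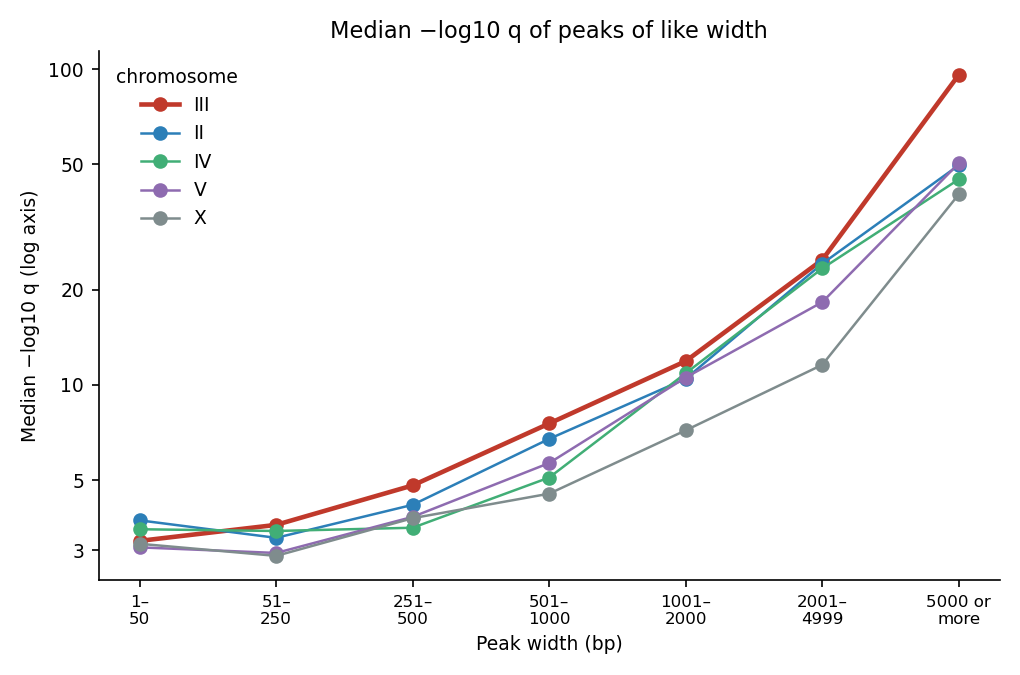
Median −log10 of the authors' q-value (log axis) of peaks in 7 width classes on chromosomes III, II, IV, V and X. The line of III is the highest from 51 bp upwards, and the distance is widest for peaks of 5000 bp or more, at 95.9 against at most 50.3. Over all widths together, the median is 6.52 on III against 6.68 on II.

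Close spacing was found on all 5 chromosomes. A neighbour within 1 kb was listed for 33.3% of peaks on III, against 23.6% on X, 21.0% on V, 33.2% on IV and 29.9% on II. Even placement gives 11.0% on III, 5.71% on X, 5.06% on V, 8.79% on IV and 7.83% on II. The ratio was 3.02 on III, against 4.14, 4.15, 3.78 and 3.81 on X, V, IV and II. III had the smallest ratio and the highest even share, and the part of density in this order was not tested.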

How the data were processed

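The authors deposited 1 list of combined peaks for 2 Pol II and 2 input libraries, called with PeakSeq per the file's source field, on WormBase WS180 per the file headers. PeakSeq compares reads in candidate regions between precipitated and input DNA. The deposited values are a q-value (an adjusted p-value) and the first and last base of each peak. The score and attribute q-values were equal in all 5942 peaks. Not given in the sources used here are the aligner, the read filters and the release of PeakSeq. Depth is unknown.

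Peaks were counted by midpoint in 500 kb windows, and covered bases were split at window edges. The partial last window entered no mean. Even placement was calculated from the free length left by the peaks and gaps of 200 bp, and the formulas were tested on simulated data. Alternatives changed window size, zone limits, q limit, merging and neighbour limit. Named peaks are the 10 with the smallest q-value, the 5 widest, the first and last, the 5 longest gaps, the 3 longest runs and the 3 windows with most and fewest peaks. The chromosome, the measures and these rules were chosen with earlier results of these data known. Windows with an extreme value of another measure and the run joined at 5 kb were named after their values were seen. The third run of 5 peaks, a tie that the rule ordered by position, was added in the same way. The tools were Python 3.11.15 with scipy 1.17.1, matplotlib 3.10.9, pandas 2.3.3 and numpy 2.4.6.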

Additional observations from a re-analysis of the deposited data

How the results depend on the processing

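Of 79 recomputed values for 13 results, 48 stayed within the 95% binomial interval (for shares, medians and ratios of counts) or within 1.5-fold of the reported value (for densities and covered bases), and 31 moved further. All 63 ratios with a direction kept it. Peaks per Mb of III were 65.3 as reported, 12.9 with q of 1e-20 or less and 34.2 with peaks within 5 kb merged. Covered bases were 91.5 kb per Mb as reported, 51.9 kb with q of 1e-20 or less and 57.2 kb without broad peaks. The centre had 2.31 times the peaks of the left arm with q of 1e-20 or less. With all 95 regions of higher rank placed in that arm, a choice made after the data were seen, the ratio was 1.12 for the left and 1.01 for the right arm. The median width was 3018 bp with q of 1e-20 or less and 767 bp after merging within 1 kb. Broad peaks were 29.0% with q of 1e-20 or less, 10.5% after merging within 1 kb, 12.3% with a limit of 3 kb and 1.44% with one of 10 kb. The ratio of close neighbours to even placement was 4.33 at 500 bp, 2.09 at 2 kb, 1.41 at 5 kb and 4.84 with q of 1e-20 or less. The density of III over V was 1.69 and over X 2.19 with q of 1e-20 or less. Merged within 5 kb, it was 1.18 over II, 1.69 over V and 1.40 over X. With all 95 regions on the other chromosome it was 1.24 over II, 1.87 over V and 1.65 over X. Centres alone gave 1.19 over II, 1.70 over V and 2.23 over X, and arms alone 1.97, 4.03 and 1.53 (both chosen after the data were seen). The causes of these shifts were not tested. No paired analysis was possible because every listed value comes from pooled libraries, which also means that leaving out a replicate could not be done. Without depth, regions weaker than the q limit of 0.01 cannot be judged.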

Other observations

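Close neighbours were found beside all kinds of chromosome III peaks. A neighbour within 1 kb was listed for 31.0% of the 58 broad peaks (95% interval 19.5 to 44.5%) and for 33.5% of the 843 others (30.3 to 36.7%). For the 47 peaks of 50 bp or less the share was 40.4% (26.4 to 55.7%). Peaks with a q-value of 1e-20 or less had a share of 39.2% (31.9 to 46.8%), against 31.9% (28.5 to 35.4%) of the other 725. All these intervals overlap, which does not show that the shares are equal.

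Chromosomes III and IV, of which IV was the nearest to III in mean density among II, IV, V and X, differed in the order of their arms. The right arm windows of III held 25.8 ± 9.26 peaks, against 12.9 ± 7.72 on IV, and the left arm windows 22.7 ± 9.83, against 26.4 ± 6.64 on IV. The mean of III was thus above that of IV in the right arm and below it in the left arm. These values are over windows of 1 pooled list and were not tested.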
